A study of Mus musculus with 12 samples.

Results

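The proteasome genes of cultured mouse pancreatic islets are described here: the subunits of the protease itself, the factors that assemble it, and the proteins that activate or inhibit it. They were taken by name, as every protein-coding gene whose symbol begins with Psma, Psmb, Psmc, Psmd, Psme, Psmf or Psmg followed by a number. The rule found 50 of the 22141 genes in the table. It used no measured value. Of the 50 genes, 49 had enough counts to be tested. Psma8, a testis form of an alpha subunit, did not, with 0 to 12 counts in a library.

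The islets were taken from wild-type male mice aged 10 to 12 weeks, and each culture held about 120 of them. The 4 groups were palmitate with C3a, palmitate alone, vehicle with C3a, and vehicle alone, with 3 RNA-seq libraries each. Palmitate is a saturated fatty acid used to load islets with lipid, and C3a is the small peptide released when complement component C3 is cleaved. All groups were wild type and none was left uncultured. Neither the doses nor the culture time nor the nature of the vehicle is stated in the labels. Whether libraries in 1 group stem from different mice is not stated either. The p-values therefore measure only how these libraries spread, which may be partly technical.

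Libraries held 22216420 to 50264695 estimated counts. The 4 libraries numbered 1 formed sequencing batch 1 and the 8 others batch 2, with every group in both batches. Beta cell genes were abundant: the 6 markers, insulin genes included, summed to between 113388 and 170326 CPM (counts scaled to a common library size) in a library. Of the 6 markers 4 fell with palmitate, where 19.4% of all genes fell. Slc2a2, the glucose transporter of mouse beta cells, fell by 0.92 on the log2 scale, and Pdx1, Nkx6-1 and Ins2 fell too. Ins1 and Mafa did not pass.

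The proteasome degrades proteins tagged with ubiquitin. Its barrel, the 20S core, has outer rings of alpha subunits and inner rings of beta subunits, and Psmb5, Psmb6 and Psmb7 carry the active sites. The 19S cap has a base, with a ring of ATPases that unfolds substrates, and a lid, whose subunit Psmd14 removes the ubiquitin chain. Interferon-gamma induces other catalytic subunits, Psmb8, Psmb9 and Psmb10, which take the places of Psmb5, Psmb6 and Psmb7 in newly made cores. The resulting immunoproteasome cuts peptides suited to display on MHC class I, and it is abundant in blood cells. In mammals the transcription factor Nfe2l1 raises subunit genes together when proteasome activity is low, through antioxidant response elements. Beta cells make proinsulin at a high rate and send misfolded protein to the proteasome.

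Sequence before the start of the gene is shown for Psmb5, Psmb6, Psmc6 and Psmd12. They are the constitutive subunits of the core, base and lid in whose promoter window the core of the antioxidant response element, TGACNNNGC, was found. All 4 rose with palmitate, but so did most such subunits, 23 of 31 in all. Psmd9 and Psme4, of other classes, also held a match and did not pass the test for palmitate. A link between the match and the rise was not tested. Each run is given 5′ to 3′ on the gene's own strand, from RefSeq in mouse build GRCm38.p6, with the match in capitals. For Psmc6 and Psmd12 the match is the reverse complement. The runs are Psmb5 at chr14:54618023-54618115 on the minus strand, Psmb6 at chr11:70525237-70525356 on the plus strand, Psmc6 at chr14:45329574-45329693 on the plus strand, and Psmd12 at chr11:107479278-107479397 on the plus strand. Bases within a GENCODE M21 exon were left out.
Psmb5: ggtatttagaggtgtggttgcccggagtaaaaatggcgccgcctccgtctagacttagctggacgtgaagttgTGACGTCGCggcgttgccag
Psmb6: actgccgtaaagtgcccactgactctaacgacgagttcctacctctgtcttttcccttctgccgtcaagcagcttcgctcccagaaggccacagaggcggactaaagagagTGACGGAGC
Psmc6: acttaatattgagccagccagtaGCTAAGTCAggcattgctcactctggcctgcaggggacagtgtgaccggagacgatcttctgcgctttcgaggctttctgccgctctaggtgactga
Psmd12: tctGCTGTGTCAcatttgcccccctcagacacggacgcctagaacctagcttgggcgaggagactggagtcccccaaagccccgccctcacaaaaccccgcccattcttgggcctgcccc

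The match began 47 bases before the RefSeq start in Psmb5, 9 in Psmb6, 227 in Psmc6 and 247 in Psmd12. Windows of 300 bases, 250 before and 50 after a RefSeq start, were searched on both strands for 42 of the 50 genes. TGACNNNGC was found in 6 of the 42 (14.3%), against 14.0% of all genes with a window. The 6 were Psmb5, Psmb6, Psmc6, Psmd12, Psmd9 and Psme4. CCAAT, the box bound by nuclear factor Y, was found in 15 of the 42 (35.7%), against 41.1% of all genes. It was found in 5 of 7 alpha subunit genes (71.4%), but in 1 of 4 constitutive beta (25.0%), 3 of 8 base (37.5%) and 1 of 6 lid genes (16.7%). Over the core, base and lid together it was found in 10 of 25 (40.0%). The core of the interferon-stimulated response element, GAAA repeated after 2 bases, was found in 5 of the 42 (11.9%), against 3.99% of all genes, and in none of the 3 immunoproteasome genes. TTCNNNGAA, the form of a gamma-activated site, was found in 3 of the 42 (7.14%), against 9.55% of all genes. The 3 were Psmd2, Psmg1 and Psmb8, the last being 1 of the 3 immunoproteasome genes. RefSeq starts can differ from those of the annotation used for the counts. Among genes with a match, the windows of Psmb8, Psmb9, Psmb11, Psmd9 and Psme1 lie inside the GENCODE M21 spans of these genes. These matches describe letters in the windows and say nothing of binding.

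Palmitate was set against vehicle, averaged over islets with and without C3a, with 6 libraries on each side. Most constitutive subunits of the core, base and lid were higher with palmitate by small amounts, and the 3 immunoproteasome subunits were lower. Of the 49 genes tested, 26 rose and 4 fell at a Benjamini-Hochberg adjusted p under 0.05 in the quasi-likelihood test of edgeR, which covered 15794 genes. Over all genes 20.3% rose and 19.4% fell. The median log2 fold change was 0.11 over the proteasome genes and -0.001 over all genes. Of the 31 constitutive core, base and lid subunits, 23 rose, none fell, and all 31 had a fold change above 0, with a median of 0.14 on the log2 scale. In bulk RNA a change of level within cells and a change in the share of cell types cannot be told apart.

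**Figure D1:**
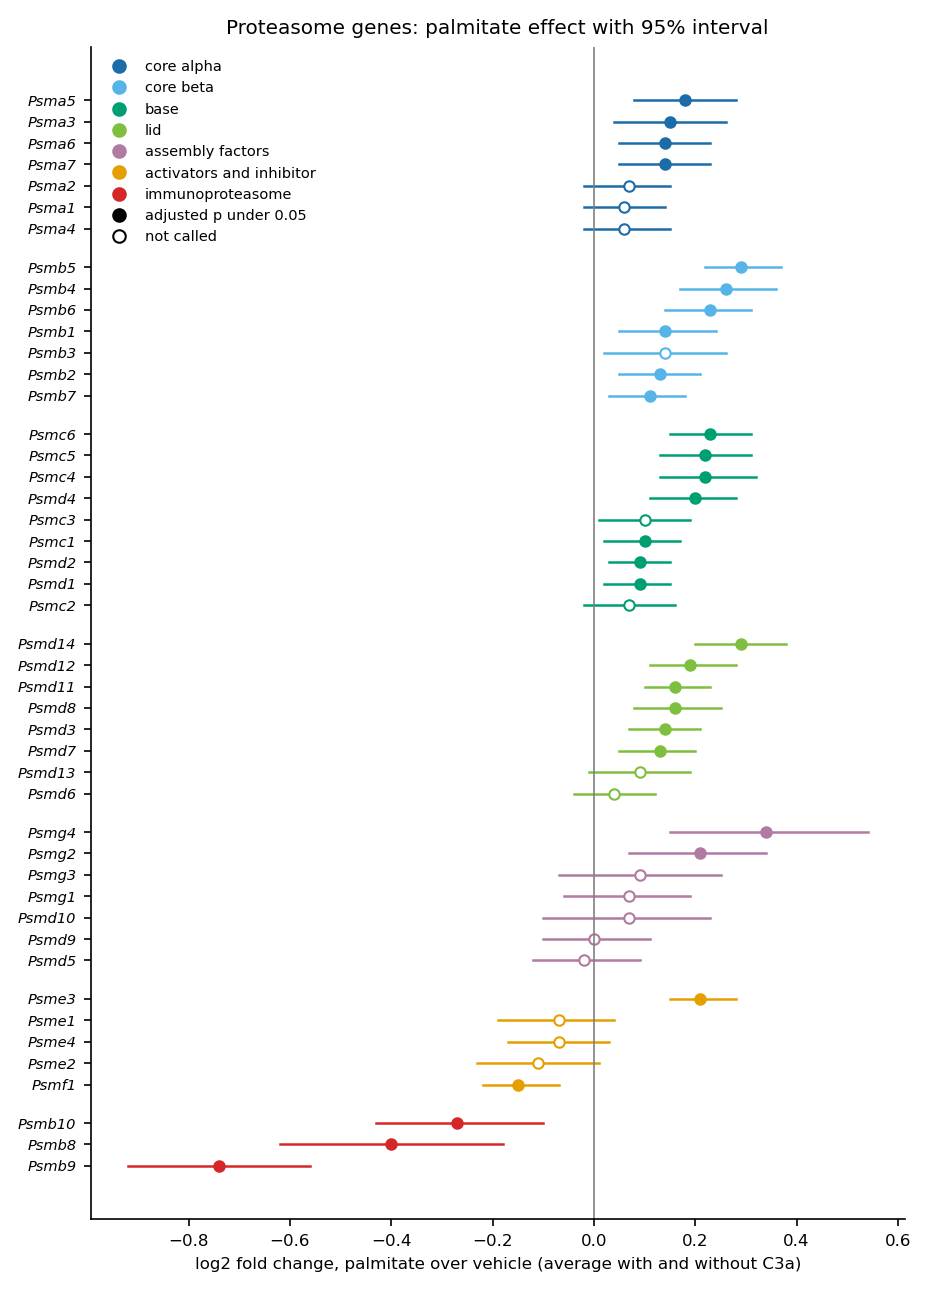
Log2 fold change of palmitate over vehicle, averaged over both C3a states, for each tested proteasome gene by class, with 95% intervals; filled points passed an adjusted p of 0.05. Psme2b, Psmb11 and Psmc3ip are not drawn. The 31 core, base and lid subunits lie between 0.04 and 0.29, and Psmb9, Psmb8 and Psmb10 at -0.74, -0.40 and -0.27.

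The constitutive subunits were far more abundant than the immunoproteasome ones. On a scale corrected for transcript length (TPM, in which each library has the same total), Psmb4 was the highest, with a mean of 183 TPM in the 6 palmitate libraries and 151 TPM in the 6 vehicle libraries. The 31 constitutive core, base and lid subunits had means from 46.8 TPM (Psma2) upward with palmitate and from 43.8 TPM (Psmc6) upward with vehicle. The median gene of the 50 had 78.0 TPM with palmitate and 68.6 TPM with vehicle. Levels summed over the 31 core, base and lid subunits were 2966 to 3181 TPM with palmitate, median 3104, against 2569 to 2878 TPM with vehicle, median 2748. The summed levels of the 2 sides did not overlap. The 3 immunoproteasome subunits together had 33.6 to 41.7 TPM with palmitate, against 45.3 to 59.7 TPM with vehicle.

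Among the 7 alpha subunits, which form the gated outer rings of the core, 4 rose: Psma3, Psma5, Psma6 and Psma7. Over all genes 20.3% rose. Psma3 passed by edgeR (adjusted p = 0.0317) but lost its call in 6 of the 12 fits that left out 1 library. It was not called with no batch term or in batch 2 alone either. Psma5 ranged over 59.0 to 72.0 CPM with palmitate, median 65.2, against 54.6 to 60.6 CPM with vehicle, median 57.4. It was higher with palmitate in all 6 pairs of libraries with the same number and C3a state, by 0.18 ± 0.05 on the log2 scale (SE, edgeR adjusted p = 0.00938). Psma6 had a median of 86.0 CPM with palmitate and 76.7 CPM with vehicle and rose by 0.14 ± 0.04 (edgeR adjusted p = 0.0165). Psma7 had medians of 87.9 CPM and 80.6 CPM and also rose by 0.14 ± 0.04 (edgeR adjusted p = 0.0167), but its adjusted p was 0.0522 without palmitate replicate 1. The ranges of all 4 genes overlapped between palmitate and vehicle. Psma1, Psma2 and Psma4 had log2 fold changes of 0.06, 0.07 and 0.06 and did not pass.

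Of the 7 constitutive beta subunits 6 rose, where 20.3% of all genes rose. Psmb3 had a log2 fold change of 0.14 with an edgeR adjusted p of 0.0536, or 0.00723 with the replicate number as a block. Psmb5, the chymotrypsin-like active site, had 87.3, 73.1 and 80.1 CPM with palmitate and 86.7, 75.2 and 77.9 CPM with palmitate and C3a, against 74.7, 61.3 and 62.5 CPM with vehicle and 70.7, 59.2 and 63.9 CPM with vehicle and C3a. The batch 1 libraries, given first in each group, were the highest. Within every pair of the same number the palmitate library was higher, and the 2 ranges touched only across batches. The averaged rise was 22.6%, or 0.29 ± 0.03 on the log2 scale (edgeR adjusted p = 3.91e-05).

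Psmb6, the caspase-like active site, had 94.5, 94.8 and 104 CPM with palmitate and 86.5, 96.6 and 98.5 CPM with palmitate and C3a, against 84.0, 81.9 and 81.6 CPM with vehicle and 80.4, 79.8 and 83.6 CPM with vehicle and C3a. All 6 palmitate libraries lay above all 6 vehicle libraries, and the averaged rise was 0.23 ± 0.04 on the log2 scale (edgeR adjusted p = 0.000471). Psmb4, a subunit with no active site, had 118 to 141 CPM with palmitate against 92.7 to 117 CPM with vehicle, also without overlap. It rose by 0.26 ± 0.04 (edgeR adjusted p = 0.000588).

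Psmb7, the trypsin-like active site, changed least among the catalytic genes. It had 79.7 to 89.2 CPM with palmitate, median 84.9, against 74.9 to 86.3 CPM with vehicle, median 78.1, and the ranges overlapped. Its rise of 0.11 ± 0.04 passed by edgeR (adjusted p = 0.0333), but leaving out any one of 8 libraries ended the call, with adjusted p of 0.0508 (without vehicle replicate 1) to 0.0874 (without vehicle with C3a replicate 2). The other 6 were palmitate replicates 1 and 3, palmitate with C3a replicates 2 and 3, and vehicle replicates 2 and 3. The differences between Psmb5, Psmb6 and Psmb7 in the size of the change were not tested.

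**Figure D2:**
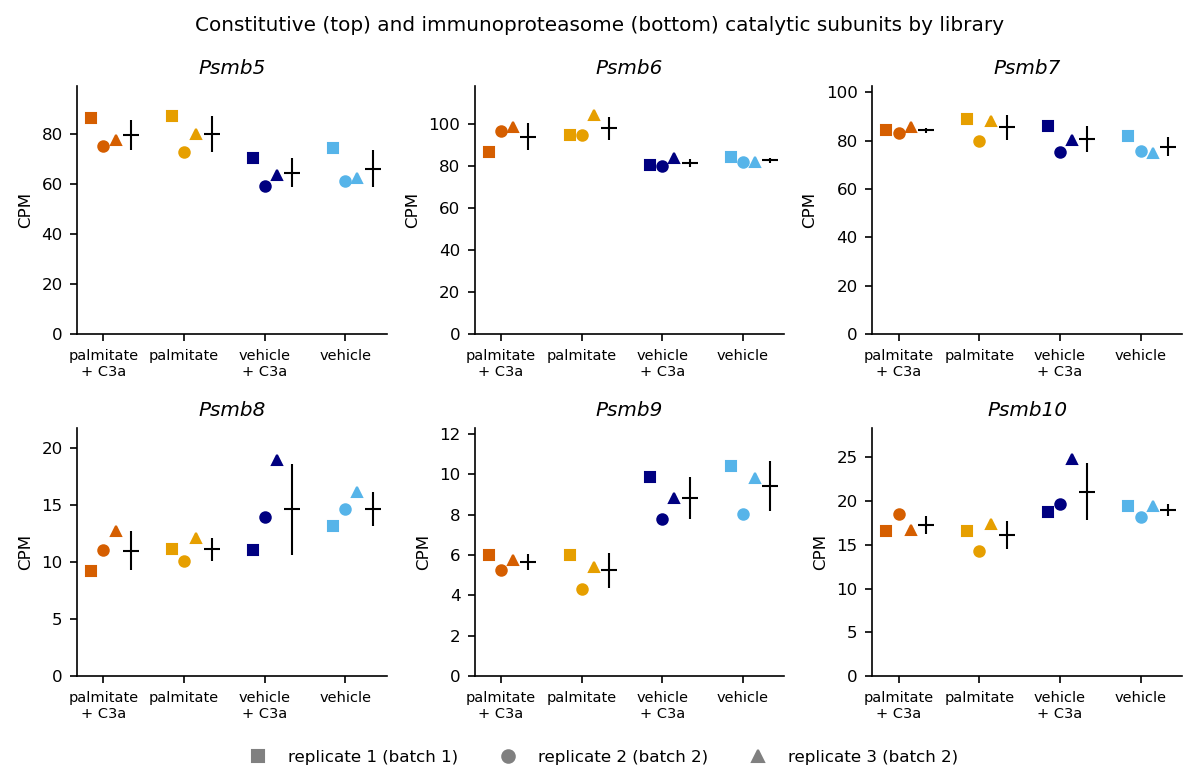
CPM of the constitutive catalytic subunits Psmb5, Psmb6 and Psmb7 (top) and of the immunoproteasome subunits Psmb8, Psmb9 and Psmb10 (bottom) in each of the 12 libraries; shapes give the replicate, and the bar beside each group is the mean with its SD (n = 3). Psmb9 is at 4.32 to 6.01 CPM with palmitate and 7.79 to 10.4 CPM with vehicle.

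In the base, 7 of 9 subunits rose and none fell, where 20.3% of all genes rose and 19.4% fell. The ATPase Psmc6 had 72.7 to 83.9 CPM with palmitate, median 78.3, against 62.3 to 70.5 CPM with vehicle, median 67.6, without overlap, and rose by 0.23 ± 0.04 log2 units (edgeR adjusted p = 0.000459). The ATPases next in order were Psmc5, which rose by 0.22 (edgeR adjusted p = 0.00128), and Psmc4, which rose by 0.22 (edgeR adjusted p = 0.00153). Psmd4, a receptor for ubiquitin chains, had 65.9 to 73.8 CPM with palmitate against 57.5 to 63.7 CPM with vehicle and rose by 0.20 (edgeR adjusted p = 0.0021). The scaffold subunits Psmd1 and Psmd2 rose by 0.09 each, and the ATPase Psmc1 by 0.10. The calls of Psmc1 and Psmd1 were lost in 10 and 9 of the 12 fits that left out 1 library, and that of Psma3 in 6. The ATPases Psmc2 and Psmc3 had log2 fold changes of 0.07 and 0.10 and did not pass, although Psmc3 reached an edgeR adjusted p of 0.0297 with the replicate block.

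In the lid, 6 of 8 subunits rose and none fell, beside the same 20.3% and 19.4% of all genes. Psmd14, the deubiquitinating enzyme of the lid, had 58.5, 56.8 and 65.4 CPM with palmitate and 54.6, 59.8 and 61.8 CPM with palmitate and C3a, against 44.7, 50.8 and 53.6 CPM with vehicle and 43.3, 49.7 and 50.1 CPM with vehicle and C3a. No palmitate library reached down to the highest vehicle library. The averaged rise was 22.2%, or 0.29 ± 0.04 on the log2 scale (edgeR adjusted p = 0.000162). Psmd12 rose by 0.19 ± 0.04 (edgeR adjusted p = 0.00176) and Psmd11 by 0.16 ± 0.03 (edgeR adjusted p = 0.000864), both higher in all 6 same-numbered pairs but with overlapping ranges. Psmd3, Psmd7 and Psmd8 rose by 0.14, 0.13 and 0.16. Psmd6 and Psmd13 had log2 fold changes of 0.04 and 0.09 and did not pass.

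The assembly factors were less abundant than the subunits they place, with means of 10.8 TPM (Psmd9) to 26.4 TPM (Psmg2) with palmitate. Of 7, 2 rose and none fell, where 20.3% of all genes rose, with a median log2 fold change of 0.07. Psmg4, one of the chaperones that pair up to build the alpha ring, had 8.34, 6.94 and 7.09 CPM with palmitate and 6.53, 6.64 and 6.98 CPM with palmitate and C3a, against 5.25, 5.88 and 5.43 CPM with vehicle and 4.69, 5.63 and 6.52 CPM with vehicle and C3a. The lowest palmitate library stood just above the highest vehicle library. Psmg4 rose by 0.34 ± 0.09 (edgeR adjusted p = 0.00961), the largest rise among the 49 genes and one of the least precise, since it rested on 104 to 352 counts a library.

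Psmg2, which pairs with Psmg1, had 17.1 to 20.1 CPM with palmitate against 14.9 to 17.6 CPM with vehicle, a slight overlap. It rose by 0.21 ± 0.06 (edgeR adjusted p = 0.0175), and the adjusted p was 0.0521 without vehicle with C3a replicate 1. Psmg3, the partner of Psmg4, had 7.80 to 9.60 CPM with palmitate against 7.18 to 9.97 CPM with vehicle, a log2 fold change of 0.09 ± 0.07 (edgeR adjusted p = 0.362). Psmg1 had a log2 fold change of 0.07, and the chaperones of the base Psmd5, Psmd9 and Psmd10 had -0.02, 0.00 and 0.07. None of these passed.

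The regulators of the core did not move together. Psme3, the nuclear activator subunit known as PA28 gamma, rose by 0.21 ± 0.03 (edgeR adjusted p = 0.000156), with 85.1 to 92.1 CPM with palmitate against 69.2 to 80.9 CPM with vehicle and no overlap. Psme1 and Psme2, the interferon-inducible subunits of the cytoplasmic activator, had log2 fold changes of -0.07 ± 0.05 (edgeR adjusted p = 0.312) and -0.11 ± 0.05 (edgeR adjusted p = 0.139). With the replicate number as a block, Psme2 reached an adjusted p of 0.0461. Psme4, an activator known from testis and DNA repair, had a log2 fold change of -0.07 (edgeR adjusted p = 0.255).

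Psmf1, first described as an inhibitor of the core, had 52.9 to 59.8 CPM with palmitate, median 55.5, against 56.2 to 68.2 CPM with vehicle, median 61.3. It fell by 0.15 ± 0.03 log2 units in the averaged comparison (edgeR adjusted p = 0.00437) and was lower with palmitate in all 6 same-numbered pairs, although the ranges overlapped.

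The immunoproteasome subunits went the other way, and all 3 fell. Their genes Psmb8 (chr17:34197721-34201454) and Psmb9 (chr17:34181987-34187764) lie in the MHC region of mouse chromosome 17, and Psmb10 (chr8:105935735-105938444) lies on chromosome 8. Psmb9 had 6.01, 4.32 and 5.39 CPM with palmitate and 5.98, 5.23 and 5.77 CPM with palmitate and C3a, against 10.4, 8.02 and 9.82 CPM with vehicle and 9.84, 7.79 and 8.84 CPM with vehicle and C3a. No palmitate library reached the lowest vehicle library. Group means were 5.24 ± 0.854 CPM with palmitate against 9.42 ± 1.25 CPM with vehicle, and 5.66 ± 0.388 CPM with palmitate and C3a against 8.82 ± 1.02 CPM with vehicle and C3a (SD, n = 3 each). The averaged fall was 40.2%, a log2 fold change of -0.74 ± 0.08 (edgeR adjusted p = 2.9e-05), the largest change of any proteasome gene tested.

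Psmb8 had 11.1, 10.1 and 12.1 CPM with palmitate and 9.23, 11.0 and 12.7 CPM with palmitate and C3a, against 13.1, 14.6 and 16.1 CPM with vehicle and 11.0, 13.9 and 18.9 CPM with vehicle and C3a. The 2 sides overlapped, through vehicle with C3a replicate 1 at 11.0 CPM, but palmitate was lower in every same-numbered pair. The averaged log2 fold change was -0.40 ± 0.10 (edgeR adjusted p = 0.00728). In the separate comparisons it was -0.39 without C3a (edgeR adjusted p = 0.0638) and -0.41 with C3a (edgeR adjusted p = 0.0507), and with the replicate number as a block the adjusted p were 0.0166 and 0.014.

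Psmb10 had 16.6, 14.3 and 17.4 CPM with palmitate and 16.6, 18.5 and 16.7 CPM with palmitate and C3a, against 19.4, 18.2 and 19.4 CPM with vehicle and 18.8, 19.7 and 24.8 CPM with vehicle and C3a. Again all 6 pairs were lower with palmitate, while the ranges met at 18.2 to 18.5 CPM. The averaged log2 fold change was -0.27 ± 0.07 (edgeR adjusted p = 0.0137), and it did not pass without C3a (edgeR adjusted p = 0.127) or with C3a (edgeR adjusted p = 0.0594, or 0.0375 with the replicate block). The 3 immunoproteasome subunits rested on 152 to 1121 counts a library.

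Set against the constitutive subunit it replaces, on the TPM scale, Psmb9 was 3.04 to 4.54% of Psmb6 with palmitate, median 3.70%, against 6.16 to 8.38% with vehicle, median 7.08%. Psmb8 was 8.11 to 11.8% of Psmb5 with palmitate against 12.3 to 21.3% with vehicle. Psmb10 was 16.0 to 19.9% of Psmb7 with palmitate against 19.2 to 27.9% with vehicle. The first 2 ratios were separate between palmitate and vehicle, and the third overlapped. The 3 immunoproteasome transcripts made up 7.84 to 9.32% of the catalytic total with palmitate against 11.3 to 14.3% with vehicle, without overlap.

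**Figure D3:**
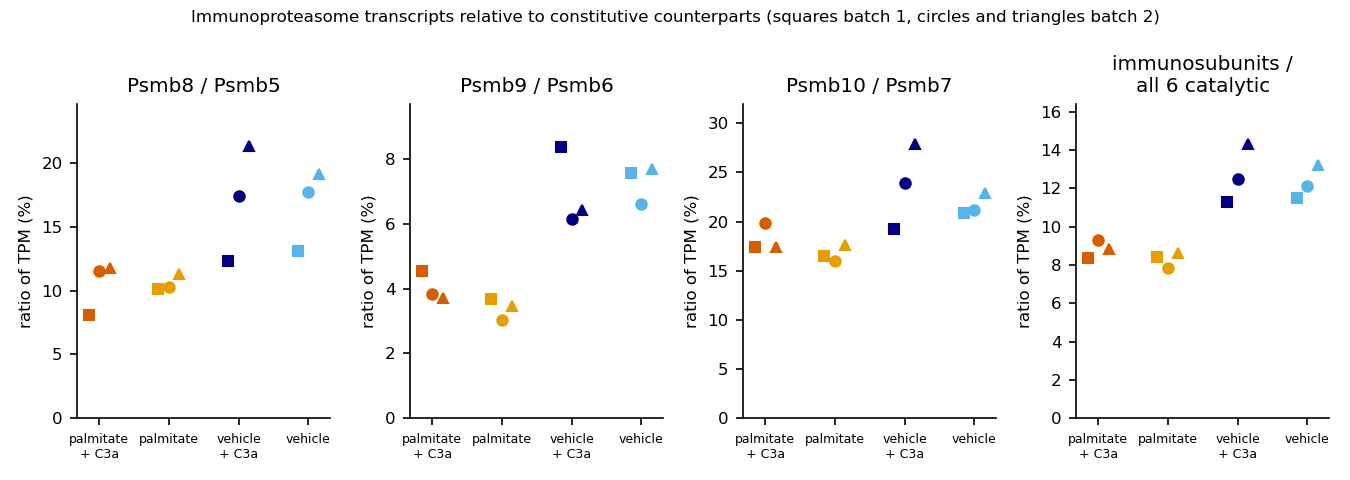
Each immunoproteasome subunit as a percentage of the constitutive subunit it replaces, and the 3 together as a percentage of all 6 catalytic subunits, in TPM, for each library. In the right-hand panel the 6 palmitate libraries lie at 7.84 to 9.32% and the 6 vehicle libraries at 11.3 to 14.3%.

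Blood and endothelial cells also express immunoproteasome subunits, so marker levels are given beside the fall. The calls stand beside 20.3% of all genes that rose and 19.4% that fell. The 7 endothelial markers summed to 96.4 to 167 CPM with palmitate against 161 to 228 CPM with vehicle, and 5 of the 7 fell (Kdr, Emcn, Plvap, Esam and Pecam1), Kdr by 1.01 on the log2 scale. The 10 macrophage markers summed to 184 to 286 CPM with palmitate against 219 to 265 CPM with vehicle. Of those, Cd68, a lysosomal protein, rose by 0.71, C1qa fell by 0.58, and the others, Csf1r among them (0.14, edgeR adjusted p = 0.512), did not pass. The 6 lymphocyte markers summed to only 1.73 to 3.69 CPM with palmitate against 2.67 to 6.87 CPM with vehicle. Of the 4 tested, Cd79a, a part of the B cell receptor, fell by 0.92. No marker was at 0 in all libraries, and the part of these cells in the fall of Psmb8, Psmb9 and Psmb10 was not tested.

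Of 6 fibroblast and pericyte markers 2 fell (Pdgfrb and Rgs5), where 19.4% of all genes fell. The 6 summed to 185 to 1438 CPM with palmitate against 339.8 to 679.8 CPM with vehicle. None of 5 acinar markers passed.

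Other genes of class I antigen processing were read beside the immunoproteasome. Of 13, 4 rose and 3 fell, where 20.3% of all genes rose and 19.4% fell. Irf1, an interferon-induced transcription factor of immunoproteasome genes, had 30.8 to 34.8 CPM with palmitate against 37.2 to 47.4 CPM with vehicle, without overlap, and fell by 0.32 ± 0.05 log2 units (edgeR adjusted p = 0.000418). Tapbp, the peptide loading factor tapasin, fell by 0.29 (edgeR adjusted p = 0.000882). Tap1, the peptide transporter gene that is divergently transcribed next to Psmb9, fell by 0.14 (edgeR adjusted p = 0.0313). Calr, Pdia3, Tapbpl and the class I heavy chain H2-D1 rose by 0.20, 0.10, 0.15 and 0.14. Tap2 (-0.05), B2m (0.08), H2-K1 (0.08) and Nlrc5 (0.31 ± 0.22, edgeR adjusted p = 0.29) did not pass.

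Of 14 other proteasome parts and partners 5 rose and 1 fell, against the same shares of all genes (20.3% and 19.4%). Zfand2a, a stress-induced proteasome-binding protein, had 57.0 to 85.5 CPM with palmitate against 30.5 to 37.6 CPM with vehicle and rose by 1.02 ± 0.08 log2 units (edgeR adjusted p = 4.27e-06). The proteasome-bound deubiquitinases Uchl5 and Usp14 rose by 0.26 and 0.20, the ubiquitin receptor Adrm1 by 0.16 and Zfand5 by 0.14. The ubiquitin ligase Ube3c fell by 0.22. Pomp, the maturation factor of the core, had a log2 fold change of 0.04 (edgeR adjusted p = 0.479), and the small lid subunit Sem1 had 0.13 and did not pass (edgeR adjusted p = 0.0481 with the replicate block).

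Of 15 regulators of proteasome genes 5 rose and 2 fell, again beside 20.3% and 19.4% of all genes. Nfe2l1 had 439.6 to 541 CPM with palmitate against 393 to 457 CPM with vehicle, overlapping across batches only, and rose by 0.21 ± 0.03 (edgeR adjusted p = 0.000133). Its dimer partners Mafk and Mafg rose by 0.59 and 0.27, and Ngly1, the glycanase that processes it, by 0.13. Bach1 rose by 0.15, while Foxo4 fell by 0.34 and Nfyc by 0.15. Nfe2l2, the oxidative stress factor, had a log2 fold change of 0.05 (edgeR adjusted p = 0.302). Of 18 ubiquitin and shuttling genes 8 rose and 2 fell, beside those shares. The shuttle Rad23b rose by 0.20, Faf1 by 0.24 and the ubiquitin precursor Rps27a by 0.28, and the shuttle Ubqln2 fell by 0.34.

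The palmitate effect was then read separately in islets without and with C3a. These comparisons share no library, but both come from the same fit, with a common estimate of spread and a common batch term. Same-numbered libraries also share a tag or batch across them, so agreement between them is not independent. Without C3a, 14 proteasome genes rose and 1 fell, against 13.4% of all genes that rose and 12.0% that fell. With C3a, 12 rose and 2 fell, against 13.8% and 13.1% of all genes. The 10 genes that passed in both were Psmb4, Psmb5, Psmb6, Psmc5, Psmc6, Psmd4, Psmd11, Psmd14, Psme3 and Psmb9. Psmb9 fell in both, by 0.85 log2 units without C3a (edgeR adjusted p = 0.000362) and by 0.63 with it (edgeR adjusted p = 0.00206). Psmf1 had -0.08 without C3a (edgeR adjusted p = 0.276) and fell by 0.22 with it (edgeR adjusted p = 0.00572). The fold change had the same sign in both comparisons for 43 of the 49 genes. Neither this count nor that of the 10 genes was set beside its share of all genes. They are therefore not read as particular to the proteasome genes.

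With the replicate number as a block, 22 rose and 2 fell without C3a, and 19 rose and 4 fell with it. The block also raised the calls over all genes, to 15.2% higher and 14.0% lower without C3a, and to 15.3% higher and 14.9% lower with it. The counts also moved when 1 library was left out. Without C3a, 9 of the 49 rose without palmitate replicate 1 or vehicle replicate 1, where 1531 of 16106 and 1538 of 16116 genes rose. In that comparison 2 fell without palmitate replicate 1 or vehicle with C3a replicate 3, where 1229 of 16106 and 1756 of 16067 genes fell. With C3a, 5 of the 49 rose without vehicle with C3a replicate 2, where 1572 of 16072 genes rose. Without vehicle with C3a replicate 1 or palmitate with C3a replicate 1 or 3, 6 rose. Over all genes 1560 of 16159, 1648 of 16118 and 2010 of 16062 rose in those fits. Of the 49, 4 fell with C3a without vehicle with C3a replicate 1 or palmitate replicate 2, where 1463 of 16159 and 2105 of 16210 genes fell.

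**Figure D4:**
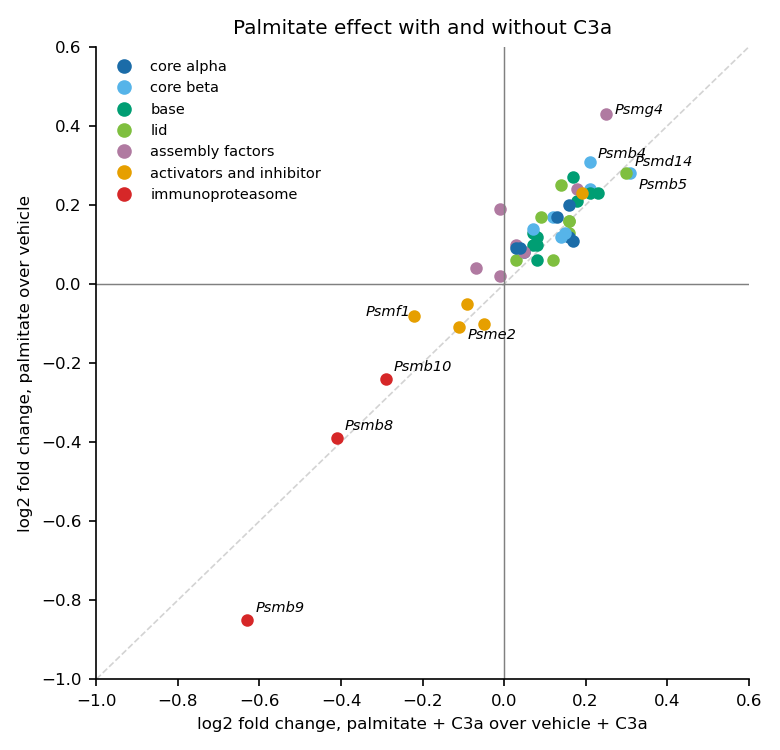
Log2 fold change of palmitate with C3a over vehicle with C3a (horizontal) and of palmitate over vehicle (vertical) for the proteasome genes, coloured by class; the dashed line marks equal values, and Psme2b, Psmb11 and Psmc3ip are not drawn. Psmb9 lies at -0.63 and -0.85, Psmb5 at 0.31 and 0.28.

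Within batches the direction held for nearly all core, base and lid subunits. In batch 1, with 1 library a group and so no test, 30 of the 31 had an averaged fold change above 0, with a median of 0.11. In batch 2 alone all 31 were above 0, with a median of 0.14, and 13 passed, where 14.8% of all genes in that fit rose. Psmb9 had an averaged log2 fold change of -0.71 in batch 1 and -0.73 in batch 2 (edgeR adjusted p = 0.00213), Psmb8 -0.23 and -0.46 (edgeR adjusted p = 0.0172), and Psmb10 -0.20 and -0.29 (edgeR adjusted p = 0.0556).

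Library by library, 26 of the 49 genes were higher with palmitate in all 6 same-numbered pairs and 4 were lower in all 6, where 20.2% and 19.8% of all genes were. In 8 genes all 6 palmitate libraries lay above all 6 vehicle libraries (Psmb4, Psmb6, Psmc6, Psmd4, Psmd8, Psmd14, Psmg4 and Psme3), against 9.02% of all genes. In 1 gene, Psmb9, they all lay below, against 8.33% of all genes. The 8 genes are 16.3% of the 49, and the 1 gene is 2.04%.

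No proteasome gene passed the test for C3a. Palmitate with C3a against palmitate alone, vehicle with C3a against vehicle alone, and the interaction of the treatments each gave 0 calls among the 49 by edgeR, and 0% of all genes passed. At an unadjusted p under 0.05 these comparisons held 0, 1 and 0 proteasome genes, the 1 being Psmf1 with vehicle, and DESeq2 gave 0 calls and the same 0, 1 and 0. Over all genes 430, 347 and 251 had an unadjusted p under 0.05 by edgeR. For the 31 core, base and lid subunits the 95% intervals of the C3a effect reached from -0.20 to 0.21 on the log2 scale within palmitate and from -0.18 to 0.24 within vehicle. For the 3 immunoproteasome subunits they reached from -0.33 to 0.38 and from -0.34 to 0.39.

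**Figure D5:**
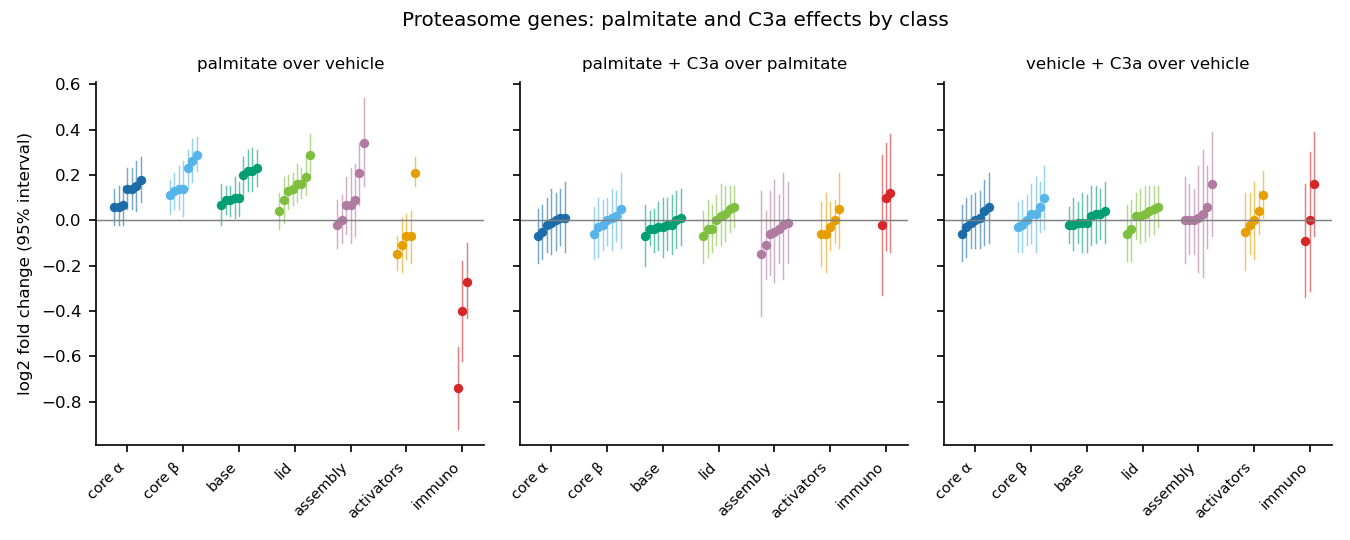
Log2 fold changes with 95% intervals of the proteasome genes by class: palmitate over vehicle averaged over C3a (left), palmitate with C3a over palmitate (middle) and vehicle with C3a over vehicle (right); Psme2b, Psmb11 and Psmc3ip are not drawn. The immunoproteasome genes lie at -0.74 to -0.27 on the left, and at -0.02 to 0.12 in the middle.

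The remaining genes were barely expressed. Psmb11, the thymus form of Psmb5, had 0.357 to 0.948 CPM over the 12 libraries and was not called (edgeR adjusted p = 0.998). Psme2b, a near-identical copy of Psme2, had 0.00 to 0.702 CPM, and the estimated counts may divide reads between the 2 copies in error. Other subunit genes have processed pseudogenes, with the same limit. Psmc3ip meets the naming rule only: it encodes a factor of meiotic recombination, not a subunit, and its log2 fold change was 0.13 ± 0.12 (edgeR adjusted p = 0.4).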

How the data were processed

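The authors deposited a table of estimated counts for 71524 transcripts in 12 libraries. Kallisto, DESeq2 and build GRCm38 are named, without versions, in the submitters' processing notes, and messenger RNA libraries were stranded, per the labels' protocols. Transcripts were summed per gene with GENCODE M21; 1582 transcripts without an entry, 0.581 to 0.677% of counts, were left out. Sums were rounded. Genes passing edgeR's filterByExpr (15794) were fitted in edgeR 4.0.16 (R 4.3.3) with all 12 libraries, TMM factors (0.967 to 1.045), group and sequencing batch, with 7 residual degrees of freedom, two-sided; the common biological coefficient of variation was 11.2%. CPM are counts over the TMM-scaled library total, times 1000000. TPM use annotated transcript lengths. SE is the log2 fold change over the square root of F. The procedure was run on simulated data that held no batch or replicate effects, so that run does not cover such effects.

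The proteasome genes, their classes and the gene lists were chosen with earlier results of these data known. Genes given in full were the 3 of smallest p in each class, the catalytic pairs, Psme1 and Psme2, and up to 4 genes a list, plus some regulators by name. Psma3, Psmc1, Psmd1, Psmd8 and other genes outside that rule are named to account for all members. Equal replicate numbers pair libraries: the labels give same-numbered libraries a common tag or batch. Deviations from group means correlated at 0.395 or more in all 18 same-numbered pairs (mean 0.575). Batch was not removed from these deviations and pairs of unlike number were not compared, so the correlations cannot tell pairing from batch. No 2 libraries were alike within counting noise. Alternatives were other size factors, no filter, DESeq2 1.42.0, the replicate block or no term in place of batch, batch 2 alone, only the compared groups, and each library left out. Promoter sequences and starts are RefSeq's, GRCm38.p6. Intervals cover the spread between libraries. Some genes of the lists are not reported here.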

Additional observations from a re-analysis of the deposited data

How the results depend on the processing

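In the averaged palmitate comparison 13 of the 30 called proteasome genes passed under all 19 alternatives: Psma6, Psmb4, Psmb5, Psmb6, Psmb8, Psmb9, Psmc4, Psmc5, Psmc6, Psmd4, Psmd11, Psmd14 and Psme3. Of the 26 that rose, 16 did so with no batch term and 14 in batch 2 alone, and leaving out 1 library gave 22 to 27. Over all genes 2071 of 15794 rose with no batch term and 2300 of 15552 in batch 2 alone. The 4 proteasome genes that fell became 5 with the replicate block and 3 with no batch term or in batch 2 alone, and stayed at 4 with any 1 library left out. In that comparison the block added Psmb3, Psmc3 and Psme2 and, outside the set, Sem1, and changed no other call among the genes named by the rule. Without C3a the 14 proteasome genes that rose became 22 with the replicate block, 3 with no batch term, 4 in batch 2 alone and 9 to 19 with 1 library left out, and the 1 that fell became 2 with the block, 2 with only the compared groups in the fit, and 1 to 2 with 1 library left out. Over all genes 964 of 15794 rose with no batch term and 1152 of 15552 in batch 2 alone, and 1666 of 15062 fell with only the compared groups. With C3a the 12 proteasome genes that rose became 19 with the replicate block, 1 with no batch term, 4 in batch 2 alone, 6 with only the compared groups and 5 to 13 with 1 library left out, and the 2 that fell became 4 with the block, 1 with no batch term and 2 to 4 with 1 library left out. Over all genes 1042 of 15794 rose with no batch term, 1178 of 15552 in batch 2 alone and 1685 of 15118 with only the compared groups. With no batch term 1032 of all 15794 genes fell. Among the proteasome genes the C3a comparisons and the interaction kept 0 under every alternative. The cause of these shifts was not tested, though batch 2 alone holds fewer libraries. Among the genes named by the rule, no fold change that had been called turned its sign under any alternative. Depth limits the genes under 1 CPM, where a library held at most 30 counts, and the SE of low genes.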

Other observations

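Psmc3ip differed between sequencing batches in every group. It had 5.54 to 5.98 CPM in the 4 libraries of batch 1, against 1.02 to 1.66 CPM in the 8 libraries of batch 2.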
